A study of Mus musculus with 6 samples.

Results

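The transcripts described here are those of 7 genes that make up or directly control the Cdk1 and cyclin B kinase: *Ccnb1*, *Ccnb2*, *Cdk1*, *Cdc25a*, *Cdc25b*, *Cdc25c* and *Wee2*. They were chosen by name and role, with no cut on a measured value, and all 7 were found among the 25899 genes of the deposited table. Cdk1 bound to a B-type cyclin is the kinase that drives entry into meiotic and mitotic M-phase. Wee-type kinases hold it inactive by phosphorylating Cdk1, and Cdc25 phosphatases remove those phosphates. In fully grown oocytes, which no longer transcribe, the amount of cyclin B and of its regulators is set by the use of stored mRNA and by protein turnover, and the kinase is switched on at nuclear envelope breakdown (NEBD).

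The 6 libraries came from oocytes of aged female (AF) CD1 mice, 58 weeks old by the sample labels (the methods of the study call the strain ICR and give a slightly lower age, in months). Females were primed with 5 IU of pregnant mare serum gonadotropin 46 h before collection. Denuded germinal vesicle oocytes, held in 100 µM IBMX during isolation, were cultured without it for 180 min and had undergone NEBD. All samples were then exposed to 0.1 mg/ml cycloheximide, which holds ribosomes on mRNA, for 10 min, and each sample was a pool of 200 oocytes. Lysates were separated on sucrose gradients of 10% to 50%. Fractions with free RNA or monosomes were combined as non-polysomal (NP) and those with polysomes as polysomal (P), with 3 libraries of each. Thus the only comparison these libraries allow is P against NP in AF oocytes, since libraries of young females were not analysed here. The gradient of each sample gave both fractions, so NP and P libraries with the same replicate number were taken as parts of one sample, although the meaning of the number is not spelled out. Whether the replicates came from separate groups of females is not stated in the sources used here, so the p-values measure the spread between these libraries.

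Values are FPKM, fragments per kilobase of exon scaled to the mapped reads of the library. An FPKM therefore cannot tell more copies of one mRNA from less of all other RNA in a fraction, nor a difference per oocyte from a difference in RNA recovered. The summed FPKM of all genes was between 597261 and 633110 in NP and between 246182 and 393876 in P, and among the 10578 genes tested the median gene had a log2 ratio of P over NP of -1.03. The depth that the steps between low FPKM imply was 1237799, 18096676 and 12131033 reads in NP replicates 1, 2 and 3 and 163820, 1141529 and 1549317 reads in P replicates 1, 2 and 3. P replicate 1 was the shallowest library. All 12 oocyte markers were above 0 in the NP libraries and 11 or 12 in the P libraries, with *Figla* at 0 in P replicates 1 and 3. Their summed levels were 10576 to 12914 FPKM in NP and 4769 to 13410 FPKM in P. Of 14 granulosa and cumulus markers, 3 to 6 were above 0 in the NP libraries and 2 or 3 in the P libraries, with sums of 11.2, 39.3 and 131 FPKM in NP and 16.5, 6.07 and 1.54 FPKM in P. *Cyp19a1* made up 104 of the 131 FPKM in NP replicate 3. *Nr5a2* was at 3.37, 6.32 and 26.9 FPKM in NP and at 0, 5.71 and 1.18 FPKM in P. *Kitl* reached at most 1.06 FPKM, and *Fshr*, *Foxl2* and *Amh* were among those listed at 0 in every library. Of 4 listed blood markers, 1 was above 0, *Cd68* at 0.643 FPKM in NP replicate 1. The part of these other cell types in the results below was not tested.

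Stored mRNAs in oocytes are often switched on through the cytoplasmic polyadenylation element (CPE), a U-rich motif near the 3′ end that binds CPEB, together with the polyadenylation signal. The end of each annotated 3′ UTR was therefore read for both, and it is shown because this element is a known route to the control of stored mRNAs in general. The last 150 bases of the GENCODE M21 transcript ending nearest the deposited gene end were searched on the transcript strand for TTTTAT and TTTTAAT as CPE and for AATAAA and ATTAAA as signal. Among 8100 tested genes with a 3′ UTR of at least 150 bases, 25.3% held a CPE of either form (19.6% TTTTAT, 7.72% TTTTAAT) and 83.3% a signal of either form (67.8% AATAAA). The longer CPE form may run on into a signal, since both can share AAT, and it did so in none of the 7. Of the 7 transcripts, *Ccnb1* held 1 CPE, *Wee2* held 2 and the other 5 held none in this window, while each of the 7 held at least 1 signal. In 30 bases of the transcript, with the motifs in capitals, the CPE closest to the 3′ end in *Ccnb1* and *Wee2* and the last signal in 4 of the others read as follows, with no sequence given for *Cdc25c*.
*Ccnb1*: gctgTTTTAATttatacatctgatatcaag
*Wee2*: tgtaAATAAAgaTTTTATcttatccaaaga
*Ccnb2*: gtattgaaggaaAATAAAgctattgatcta
*Cdk1*: ctaatggcacggAATAAAaggattattcac
*Cdc25a*: gcaggctctgcaAATAAAagtgatcttgaa
*Cdc25b*: gggccttggttcAATAAAgcactgagcaag

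In *Wee2* the TTTTAT ended 12 bases and the TTTTAAT 39 bases before the annotated 3′ end, on either side of the signal, which ended at 20. In *Ccnb1* the TTTTAAT ended 137 bases from the end, before a signal at 109 and a second at 18. A match is a description of these letters and not a shown site, and where each 3′ UTR ends in these oocytes was not measured. The annotated end used for *Cdk1* lies 1489 bases beyond the deposited end of the gene.

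**Figure D1:**
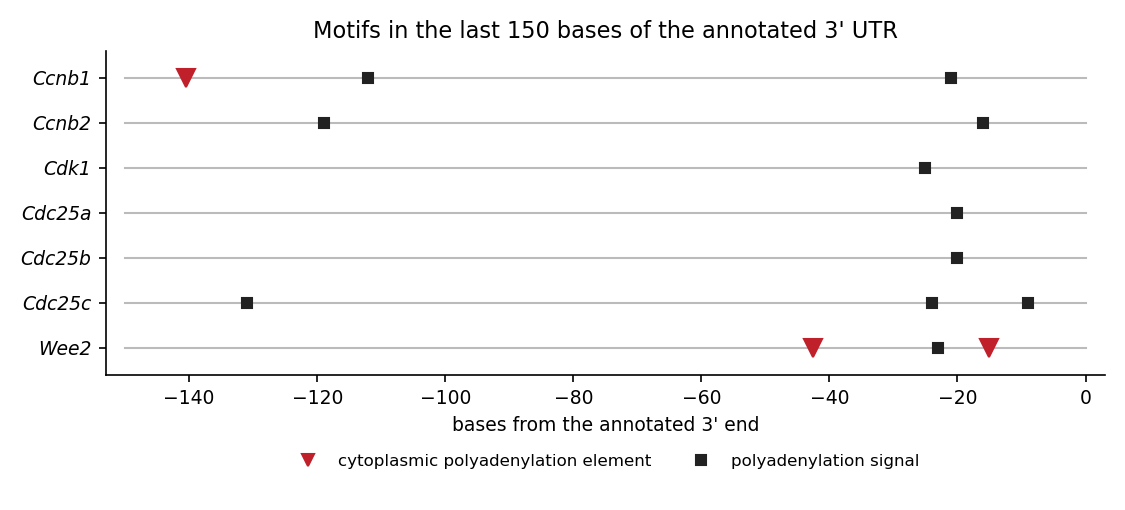
Positions of motifs in the last 150 bases of the annotated 3′ UTR of each transcript, as bases from the 3′ end (horizontal axis). Red triangles are CPE forms and black squares polyadenylation signals. Red triangles stand on the lines of *Ccnb1* (1) and *Wee2* (2) and on no other line.

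*Ccnb1* had the highest mean level of the 7 transcripts in both fractions, and its mean was lower in P than in NP without passing the test. *Ccnb1* (chromosome 13, 100778650 to 100786570, minus strand, GRCm38) encodes cyclin B1, the main activating subunit of Cdk1 in the oocyte. It measured 677, 1331 and 1686 FPKM across the NP libraries and averaged 1231 ± 512 (SD, n = 3). Its P levels were 462, 508 and 188 FPKM, averaging 386 ± 173 (SD, n = 3). Every P library was below every NP library, and the mean in P was 0.313 of that in NP. The log2 ratio of P over NP, on log2(FPKM + 1), was -1.70 (standard error 0.60, 95% interval -2.94 to -0.45). With Benjamini-Hochberg adjustment over all genes tested in limma the adjusted p was 0.182, short of the threshold of 0.1 used here, and the unadjusted p was 0.00969. Against the median gene it stood at -0.67, at percentile 28.2 of all ratios, and at 0.03 with 0.1 in place of 1 added before the logarithm. Under median-of-ratios and under quantile scaling the log2 ratio was -0.70. The values rest on 3533, 101551 and 86255 reads in NP and on 319, 2445 and 1227 reads in P. The recovered numbers lay within 0.0245 of a whole read in all 6 libraries, and they count amplified reads rather than independent molecules, as do all read numbers given here.

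*Ccnb2*, the second B-type cyclin, did not follow *Ccnb1* across the libraries. *Ccnb2* (chromosome 9, 70407689 to 70421554, minus strand) held 34.1, 43.0 and 369 FPKM in NP, averaging 149 ± 191 (SD, n = 3), from 65, 1199 and 6893 reads. The 3 P libraries held 230, 22.7 and 191 FPKM, averaging 148 ± 110 (SD, n = 3), from 58, 40 and 455 reads. NP replicate 3 held 82.7% of the summed NP level, P replicate 2 was the lowest of the 6 libraries, and the 2 fractions overlapped. On the log2 scale P over NP was 0.29 (standard error 1.02, 95% interval -1.82 to 2.40, limma adjusted p = 0.897). Its sign turned to -0.33, -0.16, -0.30 and -0.16 without NP replicate 1, NP replicate 2, P replicate 1 and P replicate 3. Against the median gene it stood at 1.32, and it was above that median under each alternative run.

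The make-up of the cyclin B pool therefore varied between libraries. *Ccnb1* was 95.2%, 96.9% and 82.1% of the summed *Ccnb1* and *Ccnb2* FPKM in NP replicates 1, 2 and 3. In P it was 66.8%, 95.7% and 49.6%, so P replicate 2 lay within the NP values and P replicates 1 and 3 below them. The difference of the 2 cyclins' log2(FPKM + 1) within a library, which a scaling of the whole library hardly moves, averaged 3.79 ± 1.43 (SD, n = 3) in NP and 1.80 ± 2.33 (SD, n = 3) in P. The P value minus the NP value was -1.99 (standard error 1.58, p = 0.3 in an exact two-sided permutation test, 0.3 adjusted over the 2 such differences tested). With 3 libraries against 3 this test cannot go below 0.1. With a library left out the value lay between -3.30 (without P replicate 2) and -1.08 (without P replicate 3). The difference was lower in P in 3 of 3 comparisons of libraries with the same number, at -3.27, -0.50 and -2.21, with a standard error of 0.81 over the 3 pairs. An exact permutation of the signs of these 3, a test chosen after the data were seen, gave p = 0.25, the smallest that 3 pairs allow, so neither form of the test can pass a threshold of 0.1.

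*Cdk1* (chromosome 10, 69336635 to 69352938, minus strand), the catalytic subunit itself, was below cyclin B1 in all 6 libraries. It had NP levels of 22.3, 84.4 and 42.7 FPKM, averaging 49.8 ± 31.7 (SD, n = 3), from 95, 5262 and 1783 reads. In the polysomal libraries the levels were 216, 10.7 and 21.0 FPKM, averaging 82.6 ± 116 (SD, n = 3), from 122, 42 and 112 reads. P replicate 1, the shallowest library, gave 87.2% of the summed P level, and the other P libraries were below every NP library. In log2 terms P over NP was -0.21 (standard error 1.09, 95% interval -2.46 to 2.04, limma adjusted p = 0.932), and it was -1.47 without P replicate 1. It was 0.75 and 0.79 under median-of-ratios and quantile scaling, and 0.26, 0.64 and 0.19 without NP replicate 2, P replicate 2 and P replicate 3. The summed FPKM of the 2 cyclins was 31.9, 16.3 and 48.2 times that of *Cdk1* in NP and 3.20, 49.7 and 18.0 times in P.

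**Figure D2:**
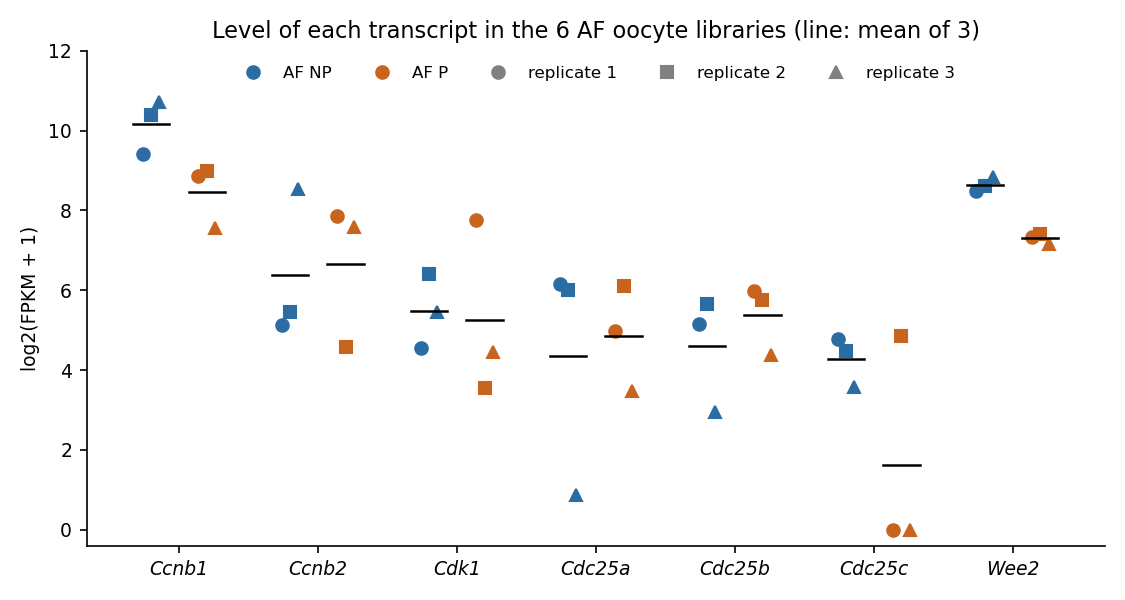
Level of the 7 transcripts as log2(FPKM + 1) (vertical axis) in 3 NP (blue) and 3 P (orange) libraries of AF oocytes, with the marker shape giving the replicate and the line the mean. *Ccnb1* and *Wee2* show separate blue and orange groups, while the other 5 overlap.

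*Wee2* and *Cdc25b* act in opposite directions on Cdk1, and the level of *Wee2* was lower in each P than in each NP library while that of *Cdc25b* overlapped between fractions. *Wee2* (chromosome 6, 40442863 to 40466813, plus strand), also called Wee1B, is the oocyte form of the inhibitory kinase that keeps Cdk1 inactive in the arrested oocyte. It measured 357, 390 and 457 FPKM across the NP libraries and averaged 401 ± 51.1 (SD, n = 3), from 1338, 21379 and 16794 reads. P levels were 159, 168 and 143 FPKM and averaged 157 ± 13.1 (SD, n = 3), from 79, 582 and 669 reads. The libraries of each fraction lay close together, more so than for any of the other 6 transcripts, and the fractions did not overlap. The mean in P was 0.390 of that in NP. P over NP on the log2 scale came to -1.35 (standard error 0.66, 95% interval -2.71 to 0.02, limma adjusted p = 0.322) and -0.32 against the median gene, at percentile 38.9. It was -0.35 under median-of-ratios and -0.30 under quantile scaling. Against the median gene *Wee2* turned to 0.38 with 0.1 in place of 1 added before the logarithm. It was 0.09 without NP replicate 3 and 0.02 under median-of-ratios scaling.

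*Cdc25b* (chromosome 2, 131186949 to 131198497, plus strand) encodes the phosphatase that is needed for the mouse oocyte to leave prophase arrest. It held 34.9, 49.7 and 6.79 FPKM in NP, averaging 30.5 ± 21.8 (SD, n = 3), from 161, 3356 and 307 reads. Across P it measured 62.2, 52.9 and 19.9 FPKM and averaged 45.0 ± 22.2 (SD, n = 3), from 38, 225 and 115 reads. Each P library was above the NP library of the same number, but P replicate 3 was below NP replicates 1 and 2, so the groups overlapped. On the log2 scale P over NP was 0.78 (standard error 1.04, 95% interval -1.37 to 2.92, limma adjusted p = 0.695), and -0.04 without NP replicate 3. Against the median gene it stood at 1.81, at percentile 93.1, and it stayed above that median in each alternative run.

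Within a library, *Wee2* was 10.2, 7.84 and 67.3 times *Cdc25b* in NP replicates 1, 2 and 3. In P it was 2.56, 3.18 and 7.16 times *Cdc25b*, and each P value was below each NP value. The difference of the log2(FPKM + 1) values averaged 4.05 ± 1.60 (SD, n = 3) in NP and 1.92 ± 0.76 (SD, n = 3) in P. The P value minus the NP value was -2.12 (standard error 1.02, p = 0.1 in an exact two-sided permutation test, which is the smallest this design can give, and 0.2 adjusted over the 2 differences). Between same-numbered libraries it was -1.98, -1.29 and -3.10, with a standard error of 0.53 and p = 0.25 in the exact permutation of signs. Without NP replicate 3, which had the lowest *Cdc25b* of the 6 libraries, it was -1.21. Against the summed Cdc25 family, *Wee2* was 2.73, 2.90 and 24.7 times in NP and 1.72, 1.13 and 4.74 times in P, where P replicate 3 was above NP replicates 1 and 2 and the fractions overlapped.

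**Figure D3:**
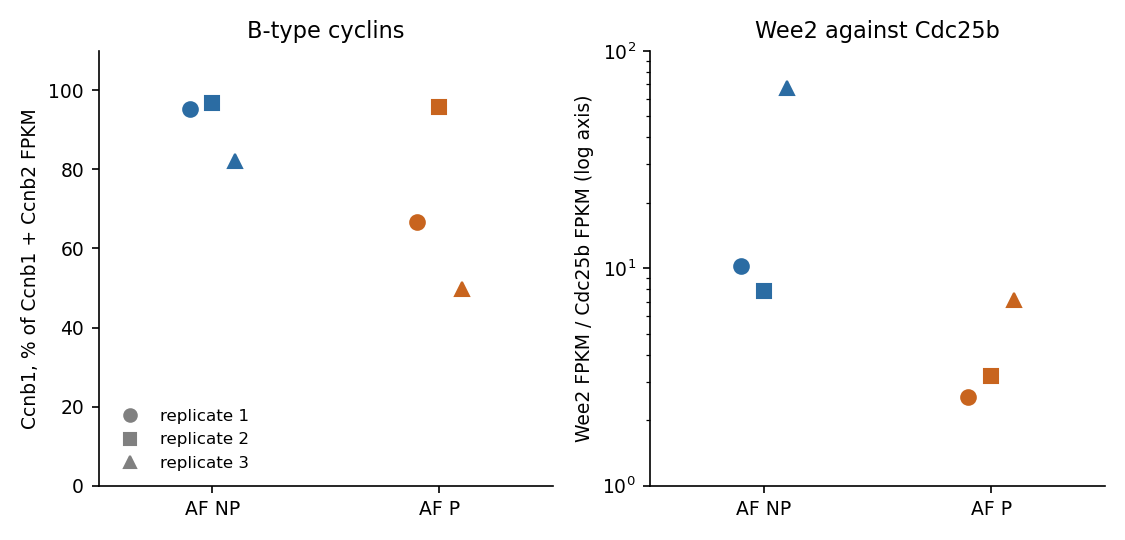
Left, *Ccnb1* as a percentage of the summed *Ccnb1* and *Ccnb2* FPKM; right, *Wee2* FPKM divided by *Cdc25b* FPKM on a log axis, in each NP (blue) and P (orange) library. On the right the P libraries, at 2.56 to 7.16, lie below the NP libraries, at 7.84 to 67.3, and on the left P replicate 2 lies among the NP values.

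*Cdc25a* and *Cdc25c*, the other members of the phosphatase family, were at moderate levels and uneven between libraries. *Cdc25a* (chromosome 9, 109875579 to 109893888, plus strand), which acts earlier in the cell cycle of dividing cells and also at M-phase entry, had NP levels of 69.8, 63.5 and 0.819 FPKM, averaging 44.7 ± 38.1 (SD, n = 3). The P libraries gave 30.3, 68.4 and 10.1 FPKM and averaged 36.3 ± 29.6 (SD, n = 3). In both fractions replicate 3 was the lowest, and the groups overlapped. On the log2 scale P over NP was 0.52 (standard error 1.28, 95% interval -2.13 to 3.16, limma adjusted p = 0.849). It was -1.22 without NP replicate 3 and -0.12 without P replicate 2.

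*Cdc25c* (chromosome 18, minus strand), which dephosphorylates Cdk1 at the G2 to M transition of dividing cells, measured 26.2, 21.4 and 10.9 FPKM across the NP libraries and averaged 19.5 ± 7.85 (SD, n = 3). In P it was at 28.0 FPKM in replicate 2, above every NP library, and listed at 0 in replicates 1 and 3. At the recovered depths, 3 reads would be worth 3.73 FPKM for *Cdc25c* in P replicate 1 and 0.394 FPKM in P replicate 3, so the 0 in replicate 1 allows a level up to the first of these. These limits cover counting error only, and they are approximate, since only 1 of the 4 *Cdc25c* values above 0 and none of the 6 *Cdc25a* values lay within 0.02 of a whole read. In log2 terms P over NP was -2.66 (standard error 1.36, 95% interval -5.48 to 0.17, limma adjusted p = 0.342), the lowest of the 7 in this fit. It depended on the value added before the logarithm, at -4.81 with 0.1 and -1.33 with 5 in place of 1, and it was -4.27 without P replicate 2. With 5 added *Ccnb1* was lower, at -1.69, and without P replicate 1 *Ccnb1* was at -1.89 and *Cdc25c* at -1.85.

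Of the summed Cdc25 family level, *Cdc25a* held the largest part in NP replicates 1 and 2 and P replicate 2, *Cdc25b* in P replicates 1 and 3, and *Cdc25c* in NP replicate 3. The sum of the 3 was 131, 135 and 18.5 FPKM in NP and 92.5, 149 and 30.1 FPKM in P. It was thus lowest in replicate 3 of both fractions.

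Ordered by mean level in NP, the transcripts ran from *Ccnb1* (1231 FPKM) through *Wee2* (401), *Ccnb2* (149), *Cdk1* (49.8), *Cdc25a* (44.7) and *Cdc25b* (30.5) to *Cdc25c* (19.5). In P the order was *Ccnb1* (386), *Wee2* (157), *Ccnb2* (148), *Cdk1* (82.6), *Cdc25b* (45.0), *Cdc25a* (36.3) and *Cdc25c* (9.33). *Ccnb1* was above *Wee2* in all 6 libraries, and their ranges did not overlap in either fraction. All other neighbours in this order had overlapping ranges. *Wee2* was above *Ccnb2* in 3 of 3 NP libraries and in 1 of 3 P libraries. Counted from the highest level of all genes in a library, *Ccnb1* took places 129, 51 and 39 in NP and 112, 38 and 421 in P. *Wee2* took places 304, 290 and 258 in NP and 396, 215 and 544 in P. In place among all genes, unlike in FPKM, the fractions overlapped for both. *Ccnb2* took places 2802, 2464 and 330 in NP and 254, 2047 and 415 in P, and *Cdc25b* 2748, 2235 and 4514 in NP and 1029, 919 and 2153 in P. Fewer genes were above 0 in P (6247 to 9557) than in NP (9992 to 13514).

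None of the 7 transcripts passed the threshold in either direction, with 1 (*Ccnb1*) at an unadjusted p below 0.05. Over all 10578 genes tested limma called 192, which is 1.82%, of which 2 (0.0189%) were higher and 190 (1.8%) lower in P (2 and 1 under median-of-ratios scaling, 2 and 2 under quantile normalization), and 1669 genes had an unadjusted p below 0.05. With the replicate number as a block limma called 668 genes (6.31%) and again none of the 7. The log2 ratio was above 0 for 3 of the 7 (*Ccnb2*, *Cdc25a* and *Cdc25b*) and below 0 for 4, against 2100 above and 8478 below 0 among all genes. For *Ccnb2*, *Cdc25a* and *Cdk1* the mean FPKM went the other way. The means in P against NP were 147.7 against 148.6, 36.3 against 44.7 and 82.6 against 49.8. The median log2 ratio was -0.21 for the 7 and -1.03 for all genes. Groups did not overlap, with P below NP, for 2 of the 7 (*Ccnb1* and *Wee2*). This held for 23.2% of all genes tested, so 2 of 7 is near the background. No member had every P library above every NP library, which 0.633% of all genes showed.

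**Figure D4:**
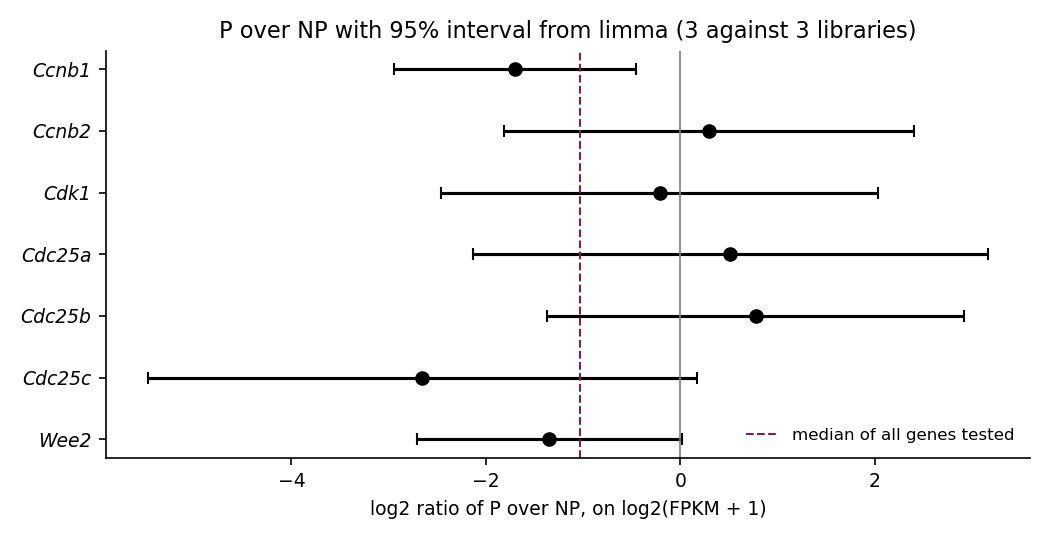
Log2 ratio of P over NP (horizontal axis) with its 95% interval from limma for the 7 transcripts. The interval of *Ccnb1* alone leaves out 0, and all 7 intervals include the dashed median of all genes at -1.03.

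The transcripts most like *Ccnb1* across the 6 libraries were found by the root mean square difference of log2(FPKM + 1) after taking out each gene's mean, among 9626 genes. They were *Ppp2ca* (0.154), *Ap1b1* (0.234) and *0910001L09Rik* (0.247), where the median gene differed by 1.35. *Ppp2ca*, the catalytic subunit of the phosphatase PP2A, measured 22.4, 61.3 and 64.1 FPKM in the NP libraries against 16.3, 20.6 and 5.60 FPKM in the P libraries. *Wee2* was at place 131 in likeness to *Ccnb1* (0.523), *Cdk1* at 6055 and *Ccnb2* at 7933. The transcripts most like *Cdk1* were *Crip2* (0.344), *Acap3* (0.410) and *Fbxo7* (0.417), with a median of 1.87 over genes. Each of these 3 had its highest level in P replicate 1, as *Cdk1* did, which follows from how they were chosen. In that library, the shallowest, *Crip2* was at 12.7 FPKM, and it was listed at 0 in P replicates 2 and 3.

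Around these 7, 48 other genes that control or partner Cdk1 were listed, of which 41 were tested and 1 passed the threshold, *Ppp1ca* (background 1.82%). With the replicate block 4 passed (background 6.31%), all lower in P as were 663 of the 668 genes called, namely *Ppp1ca*, *Plk1*, *Ppp1cc* (log2 ratio -3.63, standard error 1.09, limma adjusted p = 0.0671) and *Ywhab* (-3.66, standard error 1.08, limma adjusted p = 0.0616), the last 2 named after their values were seen. *Ppp1cc* is another catalytic subunit of protein phosphatase 1 and *Ywhab* a 14-3-3 protein, of a family that binds phosphorylated Cdc25. *Ppp1cc* measured 33.0, 45.3 and 16.0 FPKM in NP, with 5.63 and 1.13 FPKM in P replicates 2 and 3, and *Ywhab* 18.9, 11.2 and 13.9 FPKM in NP, with 0.777 FPKM in P replicate 2. The other P libraries were listed at 0, so both ratios depend on the value added before the logarithm. Among the 41 the log2 ratio was above 0 for 9 and below 0 for 32, with a median of -1.02, next to -1.03 for all genes. By role the median was -1.88 for 5 other cyclins, -0.82 for 5 Cdk partners and subunits, -1.42 for 3 genes of the Cdk-activating kinase and -0.50 for 10 Greatwall and PP2A genes. It was -1.30 for 10 regulators of Cdc25 and -2.29 for 4 phosphatases of M-phase exit, and 2 inhibitory kinases and 2 Cdk inhibitors had -0.62 and -1.51. None of the other cyclins, genes of the Cdk-activating kinase or Cdk inhibitors was above 0, and of all 10578 genes tested 2100 were. The 7 genes below the filter were *Ccna1*, *Ccnd1*, *Ccnd2*, *Ppp2cb*, *Sfn*, *Cdkn1a* and *Cdc14a*. *Ppp1ca*, a catalytic subunit of protein phosphatase 1, which reverses Cdk1 phosphorylations at M-phase exit, measured 861, 1146 and 714 FPKM in the NP libraries against 279, 56.5 and 59.0 FPKM in the P libraries. Its log2 ratio was -3.17 (standard error 0.71, limma adjusted p = 0.0416) and -2.14 against the median gene. The adjusted p ranged from 0.00768 to 0.584 over the alternatives, and it was above the threshold of 0.1 without NP replicates 1, 2 or 3 (0.351, 0.291 and 0.165) and without P replicate 2 (0.102). It was also above 0.1 with no filter and under median-of-ratios and quantile scaling (limma adjusted p = 0.403, 0.560 and 0.584).

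In 12 of the 41 every P library was below every NP library (background 23.2%), and in 2 every P library was above (background 0.633%). These 2, chosen after their values were seen, are *Cks2* and *Chek1*. *Cks2*, a small subunit that binds Cdk1, measured 16.3, 3.43 and 25.7 FPKM in the NP libraries against 61.7, 35.4 and 89.5 FPKM in the P libraries. It has only 692 exon bases, and 3 reads over 2 kb are worth 9.16 FPKM in P replicate 1, so its level there rests on few reads. The log2 ratio was 2.22 (standard error 1.04, limma adjusted p = 0.307) and 1.46 without NP replicate 2. Under median-of-ratios and quantile scaling it was 3.11 and 3.42 (limma adjusted p = 0.582 and 0.531). Against the median gene, which these scalings moved up, it was 3.25 in the main fit and 3.47 and 3.42 under them. *Chek1*, a checkpoint kinase that inhibits Cdc25 phosphatases, measured 16.9, 15.9 and 3.39 FPKM in the NP libraries against 51.2, 23.6 and 23.9 FPKM in the P libraries. Its log2 ratio was 1.53 (standard error 1.08, limma adjusted p = 0.468) and 0.87 without NP replicate 3. Under the same scalings it was 2.48 and 2.61 (limma adjusted p = 0.614 and 0.650). Against the median gene *Chek1* was at 2.56 in the main fit and at 2.84 and 2.61 under them.

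In each role group the gene with the highest mean is given here. Of the Cdc25 regulators it was *Plk1*, the Polo kinase that activates Cdc25 and inhibits Wee kinases, with 682, 756 and 2085 FPKM in the NP libraries against 266, 225 and 436 FPKM in the P libraries. Every P library was thus below every NP library, and P over NP was -1.78 on the log2 scale (standard error 0.61, limma adjusted p = 0.166). The replicate block gave *Plk1* an adjusted p of 0.0905 in limma, whereas median-of-ratios and quantile scaling gave -0.79 and -0.76 on the log2 scale (limma adjusted p = 0.740 and 0.729). Against the median gene *Plk1* stood at -0.75, at -0.06 with a pseudocount of 0.1 and at 0.07 without NP replicate 3. Of the Greatwall and PP2A genes, which oppose or protect Cdk1 phosphorylations, it was the scaffold subunit *Ppp2r1a*, with 102, 105 and 168 FPKM in the NP libraries against 248, 63.3 and 203 FPKM in the P libraries. *Ppp2cb* was listed at 0 in all libraries. Of the Cdk subunits it was *Cks1b*, with 96.1, 67.0 and 39.5 FPKM in the NP libraries against 16.3, 44.3 and 96.3 FPKM in the P libraries.

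The remaining leading genes rested on 1 library or were low. *Wee1*, the inhibitory kinase of somatic cells, was at 7.49, 0.769 and 4.25 FPKM in NP, listed at 0 in P replicate 1, and at 0.451 and 164 FPKM in P replicates 2 and 3. *Wee1* was thus far below *Wee2* in 5 of the 6 libraries and above it in P replicate 3. *Ccne1*, a G1 cyclin, was at 316, 3.88 and 0.031 FPKM in NP and listed at 0 in each P library. *Cdkn1c*, a Cdk inhibitor, was at 10.9 and 0.343 FPKM in NP replicates 1 and 2 and listed at 0 in the other 4. *Mnat1*, of the Cdk-activating kinase, was at 0.323, 6.22 and 5.07 FPKM in NP, at 5.95 FPKM in P replicate 2 and listed at 0 in the other P libraries. None of these 4, nor *Ppp2r1a* or *Cks1b*, passed the threshold (adjusted p from 0.274 to 0.876, limma).

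**Figure D5:**
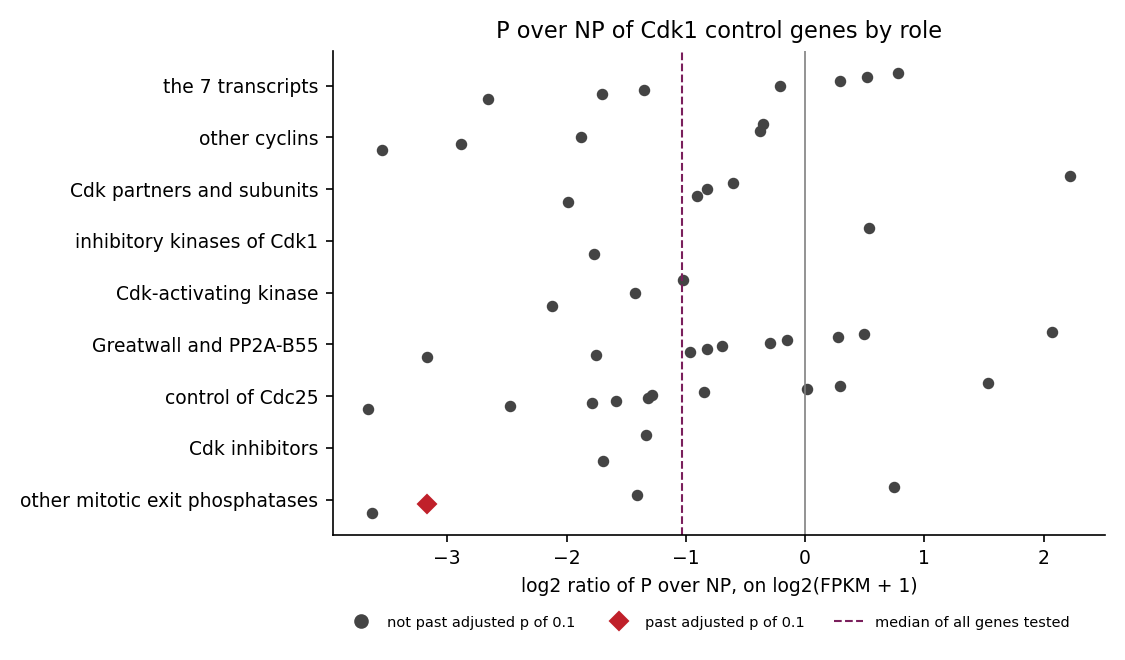
Log2 ratio of P over NP (horizontal axis) of the 7 transcripts and of 41 other genes that control Cdk1, by role, each point a gene. The red diamond at -3.17 is *Ppp1ca*, and the dashed line is the median of all genes at -1.03.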

How the data were processed

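RNA was depleted of rRNA and amplified as cDNA. Per the labels, processing used Trim Galore 0.4.1 for trimming, HISAT2 2.0.5 for mapping and the GRCm38 build. The authors computed the deposited FPKM values in Seqmonk. Annotation release and strand setting: not given in the sources used here. The deposited mean of each fraction was not used. The members were chosen by name and role, but they and the lists were chosen with earlier results of these data known.

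Of 25965 rows with 58 duplicated symbols, the row with the highest mean was kept for each symbol. Depth was the step that makes low FPKM values whole at GENCODE M21 exon lengths (found for 87.4% of genes), with the outermost exons set to the deposited gene ends. Between 67.0% and 78.9% of values of at most 8 reads were whole within 0.02 reads. Read numbers of 5 of the 7 transcripts lay within 0.0245 of whole in all libraries. What 1 step counts, a read or a part of one, is not settled.

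Genes averaging more than 1 FPKM in NP or in P entered a limma fit (version 3.58.1, R 4.3.3) of log2(FPKM + 1), whose prior variance followed the mean level. Tests were two-sided with Benjamini-Hochberg adjustment and a threshold of 0.1. The scale understates changes of low genes. The script was tested on simulated data. Alternatives were pseudocounts of 0.1 and 5, no filter, 2 scalings, the replicate block, and each library left out. Exact permutation tests used scipy 1.17.1 in Python 3.11.15. Named genes are the 7, of 48 other Cdk1 genes (*Bora* under an older symbol) those past the threshold and the most abundant of each of 8 role groups, and the 3 most like *Ccnb1* and *Cdk1*. *Cks2*, *Chek1*, *Ppp1cc* and *Ywhab* were added after their values were seen.

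Per the methods and labels the gradient of each sample was divided into NP and P, so same-numbered libraries were taken as paired. Their deviations from the group means correlated at 0.063, 0.099 and 0.116 across genes, and those of other pairs between -0.089 and 0.021.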

Additional observations from a re-analysis of the deposited data

How the results depend on the processing

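In none of the 12 alternatives run did any of the 7 transcripts pass the threshold, and 72 of their 84 log2 ratios kept their direction. *Ccnb1*, *Cdc25c* and *Wee2* stayed below 0 throughout, with adjusted p from 0.113 to 0.769, 0.151 to 0.949 and 0.225 to 0.897 (limma). The 12 ratios that changed sign were those of *Cdk1* under median-of-ratios (0.75) and quantile scaling (0.79), and those with a library left out, where *Ccnb2* ranged from -0.33 to 1.37, *Cdk1* from -1.47 to 0.64, *Cdc25a* from -1.22 to 1.42 and *Cdc25b* from -0.042 to 1.31. Of the other named genes, *Cks1b* turned to 0.38 and 0.31 under the same scalings, *Wee1* to -0.56 with a pseudocount of 0.1, and with a library left out *Cks1b* ranged from -1.20 to 0.044, *Wee1* from -1.83 to 1.85 and *Ppp2r1a* from -0.093 to 0.88. Relative to the median gene, *Ccnb2*, *Cdc25a* and *Cdc25b* stayed above and *Cdc25c* below it, whereas *Ccnb1* ranged up to 0.03 and *Wee2* up to 0.38 (pseudocount of 0.1). *Cdk1* ranged from -0.43 without P replicate 1 to 1.84 without P replicate 2. Median-of-ratios scaling moved the median of all genes from -1.03 to -0.37, and quantile normalization moved it to 0.0027. *Ppp1ca* kept its direction, and was short of the threshold with no filter, under both scalings (adjusted p = 0.403, 0.560 and 0.584, limma) and without 4 of the 6 libraries.

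The number of genes called across the table was 192. It was 69 with a pseudocount of 0.1, 1 with no filter (1774 at an unadjusted p below 0.05), 3 under median-of-ratios scaling, 4 under quantile normalization, and from 1 to 331 with a library left out (4, 12 and 1 without NP replicates 1, 2 and 3, and 331 without P replicate 3). The replicate block gave 668, called *Plk1*, *Ppp1cc* and *Ywhab* beside *Ppp1ca*, and changed no other call among the 7 transcripts and the 41 other Cdk1 genes tested. The 2 differences within a library stayed below 0 with pseudocounts of 0.1 and 5 and with each library left out, from -3.30 to -1.08 for *Ccnb1* minus *Ccnb2* and from -2.67 to -1.21 for *Wee2* minus *Cdc25b*. The cause of these shifts was not tested. At the depth of P replicate 1, 3 reads in a transcript of 2 kb are worth 9.16 FPKM.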
